A study of Mus musculus with 6 samples.

Results

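The EGR, NR4A and IER immediate-early genes are 9 genes in 3 groups of 3: Egr1, Egr2 and Egr3, Nr4a1, Nr4a2 and Nr4a3, and Ier2, Ier3 and Ier5. They were found by gene symbol in the platform table. The rule itself used no measured value, but the genes were chosen with earlier results of these data known. Each has 1 probe set with that symbol alone, so 9 probe sets of 35556 in the table and 9 genes of the 19938 tested stand for them. Transcripts were measured in whole liver of male C57BL6 mice aged 10 weeks. In the IL-6 group, 3 arrays held liver taken 1 h after each mouse was injected intraperitoneally with 100 ng of the cytokine interleukin-6 (IL-6). In the saline group, 3 arrays held liver taken 1 h after saline alone. Animals of both groups had fasted for 16 h before the injection, so every value comes from the fasted state. The comparison asks which of these genes differ in liver at this single early time after IL-6.

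Immediate-early genes are transcribed within minutes of a stimulus from factors that are already present in the cell, without new protein synthesis. Their messages are usually short-lived, so a sample at 1 time shows only part of a rise and fall. The EGR genes encode zinc finger transcription factors that bind GC-rich sites, and growth factor signalling through ERK, the ternary complex factors and serum response factor is a classical route to them. The NR4A genes encode orphan nuclear receptors that in liver are known for their induction by glucagon and cAMP in fasting and for their link to glucose production. Of the IER genes, Ier2 and Ier5 encode related nuclear proteins, while Ier3 shares the name for its fast induction and is known for its part in cell survival.

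Of the 9 genes, Egr1 rose and the other 8 did not pass the test. Egr1 stood 2.56-fold higher after IL-6, or 1.36 ± 0.14 on the log2 scale (difference ± standard error here and below, n = 3 arrays in each group, limma adjusted p = 0.00254). The 3 IER genes had smaller positive differences, from 0.23 to 0.42 on the log2 scale, whose IL-6 values all lay above the saline values. Egr2, Egr3 and the 3 NR4A genes had differences from -0.25 to 0.05 with overlapping groups. A call here means a limma p, adjusted over all 19938 genes by the Benjamini-Hochberg method, under 0.05. By that rule 0.386% of all genes were called higher and 0.0351% lower. The median difference of the 9 genes was 0.05, against 0.003 over all genes tested, and 7 of the 9 differences were positive, against 51.1% of all genes.

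**Figure D1:**
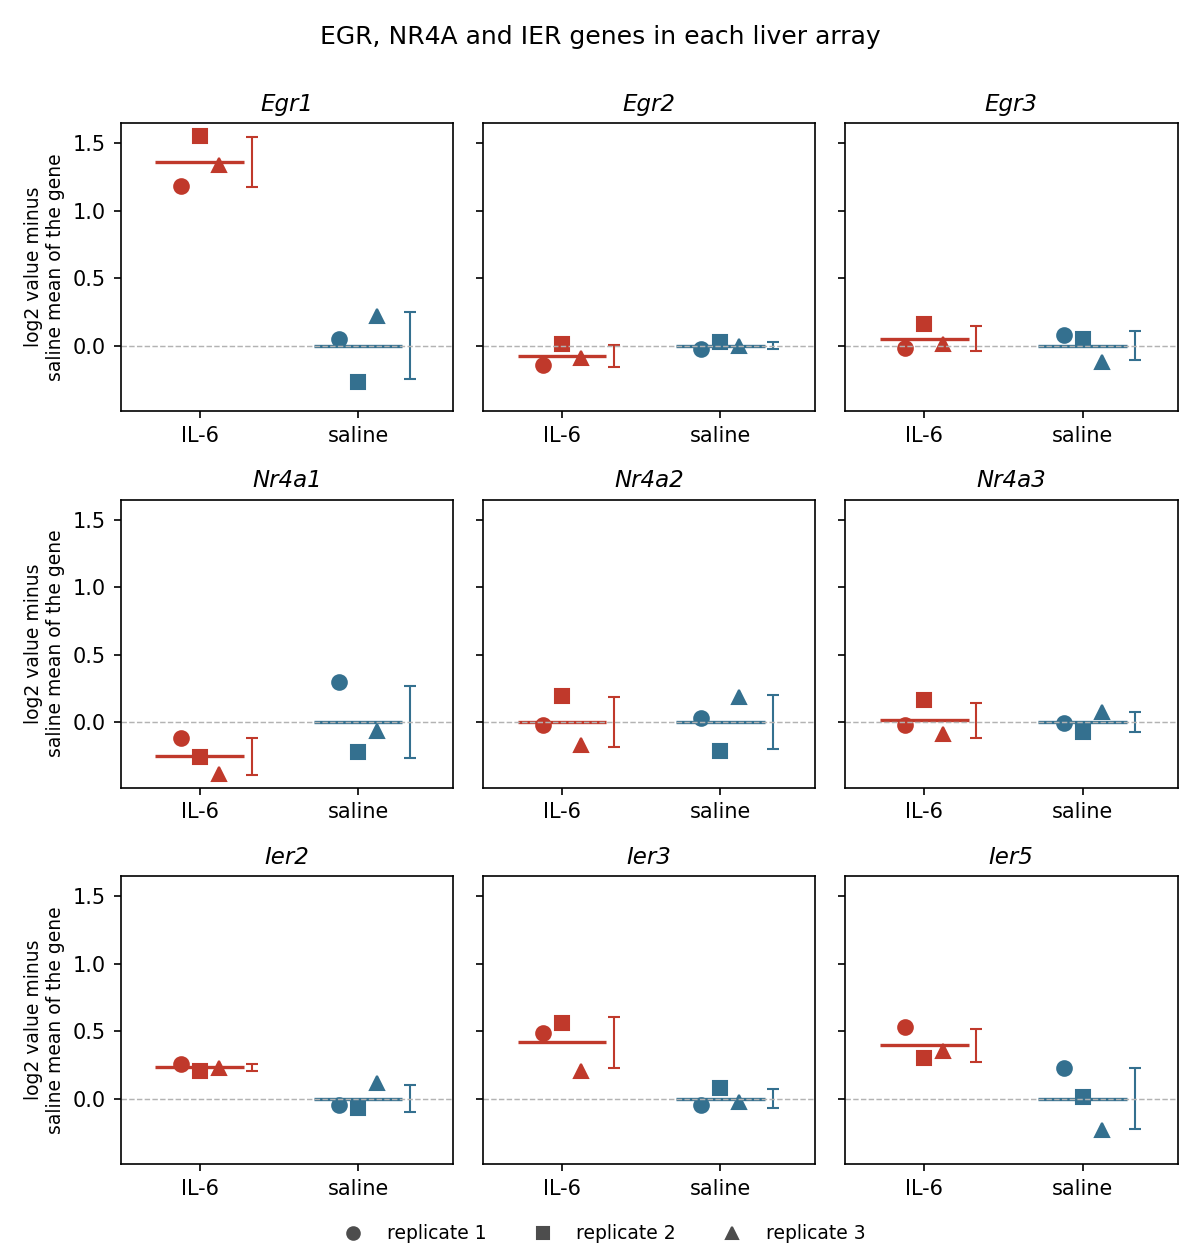
Each panel shows 1 gene, with the log2 value of each array minus the mean of the saline arrays of that gene on the vertical axis, the 3 IL-6 arrays on the left and the 3 saline arrays on the right. Horizontal bars are group means and error bars are SD (n = 3). The Egr1 groups stand far apart, the Ier2, Ier3 and Ier5 groups are separated by less, and the groups of the other 5 genes overlap.

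Egr1, the best known EGR factor and a target of many growth and stress signals, was the called EGR gene. Its log2 values (probe set 10454782) were 7.30, 7.67 and 7.45 in IL-6 livers and 6.17, 5.85 and 6.34 in saline livers. The lowest IL-6 value exceeded the highest saline value by 0.96, more than the range within either group, which was 0.37 for IL-6 and 0.49 for saline. The mean was 7.47 ± 0.18 in IL-6 livers and 6.12 ± 0.25 in saline livers (SD, n = 3 each), and the 95% interval of the difference ran from 1.05 to 1.66. Over all genes tested, 20 had a larger difference than Egr1, and 18 of those were called. An exact two-sided permutation test of the 6 arrays gave p = 0.1, the smallest value that 3 arrays against 3 can give.

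The Egr1 difference was at least 1.22 whichever array was left out, and limma adjusted p stayed between 0.00371 and 0.0192. The call was lost when all 35556 probe sets were tested (limma adjusted p = 0.0797). Over all alternatives the adjusted p ran from 0.000452 to that value. Without saline replicate 2 and IL-6 replicate 3 together, arrays that stand apart from the other 4 on the second principal component, the difference was 1.23 (limma adjusted p = 0.0390).

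Egr2, which is known for its part in Schwann cell myelination and in immune cells, had values of 5.38, 5.54 and 5.43 in IL-6 livers and 5.50, 5.55 and 5.52 in saline livers. The groups overlapped, with a log2 difference of -0.07 ± 0.07 (limma adjusted p = 0.937). The mean level of Egr2 lay at the 44.0th percentile of all genes, and its signal over background is unknown here. Egr3, a further zinc finger factor of the family, had 6.38, 6.56 and 6.41 in IL-6 livers and 6.47, 6.45 and 6.27 in saline livers. Its groups overlapped too, with a difference of 0.05 ± 0.09 (limma adjusted p = 0.963). The 95% intervals ended at 0.09 for Egr2 and 0.25 for Egr3, below the lower end of the Egr1 interval at 1.05.

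The contrast within the family was tested on the per-array difference between the log2 values of a pair of genes. Egr1 minus Egr2 was 1.43 ± 0.17 larger in IL-6 than in saline livers, and Egr1 minus Egr3 was 1.31 ± 0.20 larger (standard errors, n = 3 each). In both pairs the 3 IL-6 arrays lay above the 3 saline arrays. Each exact two-sided permutation p was 0.1, the smallest possible, and 0.3 after adjustment over the 6 pairs tested in the 3 families. With 3 arrays in each group this exact test cannot pass a threshold of 0.05, so it does not decide the contrast.

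The promoter of Egr2 is shown because it carries the kind of element that growth factor signals act on, while its transcript gave no call. The window holds 250 bases before and 50 after an annotated start in RefSeq on build GRCm38.p6, chr10:67537619-67537918 on the + strand. Capitals mark matches, on either strand, to 5 motifs. These were the cAMP response element TGACGTCA, its half-site TGACG, the CArG box bound by serum response factor, the EGR site GCGNGGGCG and the STAT site TTCNNNGAA, and a full cAMP response element also holds 2 overlapping half-sites. The RefSeq windows used here covered 6 of the 9 genes with 10 windows, 5 of them for Egr2. Egr1, Egr3 and Ier2 were not searched. Of the 5 Egr2 windows, which overlap in part, the printed one is the first that holds both a CArG box and a half-site. Another held a CArG box alone, and 1 held no match to any of the 5 motifs.
Egr2: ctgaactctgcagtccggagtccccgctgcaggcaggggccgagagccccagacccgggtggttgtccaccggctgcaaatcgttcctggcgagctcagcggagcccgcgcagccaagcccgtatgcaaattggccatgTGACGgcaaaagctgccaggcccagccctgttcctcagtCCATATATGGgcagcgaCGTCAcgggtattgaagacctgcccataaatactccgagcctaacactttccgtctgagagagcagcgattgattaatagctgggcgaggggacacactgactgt
The CArG box begins at -72 and the half-sites at -111 and -55 from the start. A CArG box stood in 1.63% of 32851 promoter windows of the same length, and the half-site in 20.8%. These are matches of letters, not shown sites of binding.

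None of the 3 NR4A receptor genes was called, and in each of them the groups overlapped. Nr4a1 (Nur77), induced in liver by glucagon and cAMP, had 4.66, 4.51 and 4.39 in IL-6 livers and 5.07, 4.55 and 4.71 in saline livers. IL-6 replicate 1 lay above saline replicate 2, and saline replicate 1 was the highest of the 6. The log2 difference of -0.25 ± 0.13 was the lowest of the 9 genes (limma adjusted p = 0.832, 95% interval -0.55 to 0.04). Without saline replicate 1 it was -0.11, and over the 6 analyses with 1 array left out it ran from -0.37 to that value. The mean level of Nr4a1 was low, at the 26.1th percentile of all genes, and its signal over background is unknown here.

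Nr4a2 (Nurr1), best known in dopaminergic neurons, had 5.16, 5.37 and 5.01 in IL-6 livers and 5.21, 4.97 and 5.37 in saline livers. The groups overlapped almost wholly, and the log2 difference was 8.43e-05 ± 0.12 (limma adjusted p = 1.00). Nr4a3 (NOR1), the third receptor of the family, had 3.96, 4.14 and 3.89 in IL-6 livers and 3.98, 3.91 and 4.06 in saline livers. Its difference was 0.01 ± 0.09 (limma adjusted p = 0.987). Its mean level lay below the 25th percentile of all genes, 4.59 on the log2 scale, and that of Nr4a2 lay at the 37.3th percentile. Background could not be assessed from these values. The upper ends of the 95% intervals were 0.28 for Nr4a2 and 0.21 for Nr4a3. The response of Nr4a1 was not shown to differ from those of the other NR4A genes, at -0.25 ± 0.18 for Nr4a1 minus Nr4a2 and -0.27 ± 0.18 for Nr4a1 minus Nr4a3, and each exact two-sided permutation p was 0.3 (adjusted 0.45).

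Promoters of Nr4a1 and Nr4a3 are shown because the family is known as a cAMP target. Capitals have the meaning given above. The windows are chr15:101266596-101266895 and chr4:48045055-48045354, both on the + strand of GRCm38.p6.
Nr4a1: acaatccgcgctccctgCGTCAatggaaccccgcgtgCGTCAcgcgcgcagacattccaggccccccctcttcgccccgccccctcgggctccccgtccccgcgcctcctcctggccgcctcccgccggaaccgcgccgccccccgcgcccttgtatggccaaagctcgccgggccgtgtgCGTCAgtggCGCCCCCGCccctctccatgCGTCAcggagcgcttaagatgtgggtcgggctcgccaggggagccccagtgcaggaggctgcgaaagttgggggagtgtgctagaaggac
Nr4a3: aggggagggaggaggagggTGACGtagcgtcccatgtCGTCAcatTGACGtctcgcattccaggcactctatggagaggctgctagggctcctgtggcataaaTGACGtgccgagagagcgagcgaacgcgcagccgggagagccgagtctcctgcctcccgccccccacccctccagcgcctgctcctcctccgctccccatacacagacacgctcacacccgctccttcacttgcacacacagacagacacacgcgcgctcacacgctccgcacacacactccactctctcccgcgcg
The window of Nr4a1 held 4 half-sites, beginning at -233, -213, -69 and -40, and 1 EGR site at -60, a motif found in 5.55% of all windows. The window of Nr4a3 held 4 half-sites, at -231, -213, -205 and -147. The window of Nr4a2, not printed, also held 4 half-sites and 1 EGR site. At least 1 half-site stood in 20.8% of all windows, and the share with 4 is not given here. A full cAMP response element, present in 1.79% of all windows, was in none of the 10 windows searched, and neither was the STAT site, present in 8.3%. These windows include none of Egr1.

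**Figure D2:**
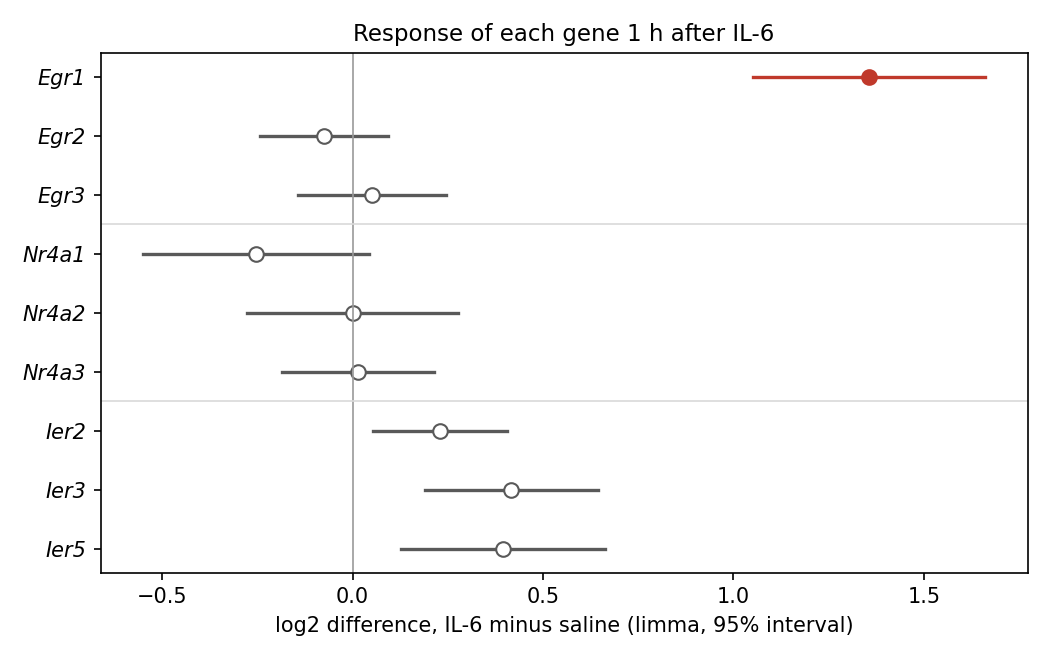
The log2 difference between IL-6 and saline arrays from limma is on the horizontal axis, with its 95% interval, for each of the 9 genes. The filled point is the called gene Egr1 (1.36), and open points are genes that were not called. The intervals of Ier2, Ier3 and Ier5 lie above 0 before adjustment for the number of genes, and those of the other 5 genes include 0.

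The 3 IER genes had positive differences that did not pass the test over all genes. Ier3 (IEX-1), which is known to affect cell survival under stress, had 5.64, 5.71 and 5.36 in IL-6 livers and 5.11, 5.23 and 5.13 in saline livers. All 3 IL-6 values lay above the saline values, the nearest by 0.13. The log2 difference was 0.42 ± 0.10, a fold of 1.33, with a limma adjusted p of 0.269, and 0.00245 before adjustment. Of all genes tested 0.828% had a larger difference.

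Ier5, which is known to take part in the heat shock factor response, had 5.95, 5.72 and 5.77 in IL-6 livers and 5.64, 5.43 and 5.19 in saline livers. The groups did not overlap, but only 0.08 separated the lowest IL-6 from the highest saline value, and the saline arrays spanned 0.46. The log2 difference was 0.39 ± 0.12 (limma adjusted p = 0.465, and 0.00859 before adjustment). Ier2, a growth factor-induced nuclear protein, had 6.82, 6.77 and 6.80 in IL-6 livers and 6.52, 6.50 and 6.68 in saline livers. The IL-6 arrays lay within 0.05 of each other and above the saline arrays, with a difference of 0.23 ± 0.08 (limma adjusted p = 0.559, and 0.0160 before adjustment).

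With Egr1, 4 of the 9 genes had all 3 IL-6 values above all 3 saline values, a share of 44.4%, against 6.15% of all genes tested. None of the 9 had all IL-6 values below, against 5.48% of all genes. At an unadjusted limma p under 0.05 the same 4 genes were higher, where 3.78% of all genes were, and 0 were lower, where 2.83% of all genes were. Because the 9 genes were chosen with earlier results of these data known, these shares are a description and not a test. None of the 3 IER genes was called under any alternative that tested it. The lowest limma adjusted p were 0.0765 for Ier3, without IL-6 replicate 3, 0.222 for Ier5, without saline replicate 1, and 0.311 for Ier2, with genes below the median level left out. The responses of Ier2 and Ier5 differed by -0.16 ± 0.19 and those of Ier3 and Ier5 by 0.02 ± 0.19, with exact two-sided permutation p of 0.4 and 0.9 (adjusted 0.48 and 0.9).

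The promoters of Ier3 and Ier5 are shown because their transcripts shared a direction. The windows are chr17:35821463-35821762 on the + strand and chr1:155099587-155099886 on the - strand, both on GRCm38.p6 and printed in the direction of the gene.
Ier3: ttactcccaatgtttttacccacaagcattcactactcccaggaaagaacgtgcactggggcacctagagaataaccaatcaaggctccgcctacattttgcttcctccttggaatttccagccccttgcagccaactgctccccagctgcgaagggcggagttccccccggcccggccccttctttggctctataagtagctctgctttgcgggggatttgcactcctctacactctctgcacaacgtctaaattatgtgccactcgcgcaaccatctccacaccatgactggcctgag
Ier5: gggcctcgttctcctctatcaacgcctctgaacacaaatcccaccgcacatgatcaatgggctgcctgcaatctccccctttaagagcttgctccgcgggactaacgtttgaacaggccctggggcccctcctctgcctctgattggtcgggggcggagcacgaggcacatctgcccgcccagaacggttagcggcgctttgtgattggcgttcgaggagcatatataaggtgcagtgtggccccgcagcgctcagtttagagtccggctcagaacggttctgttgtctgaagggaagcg
Neither window held a match to any of the 5 motifs, so no letter is in capitals. This says only that these letters are absent from these 300 bases.

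Leaving out single arrays changed the 9 genes unequally. IL-6 replicate 2 held the highest IL-6 value in 6 of the 9 genes, and IL-6 replicate 3 in 0. The same shares over all genes are not given here, so these counts are not shown to be particular to the 9. Without IL-6 replicate 2, the differences of Egr3, Nr4a2 and Nr4a3 were below 0, at -0.003, -0.10 and -0.06, while that of Egr1 was 1.26 (limma adjusted p = 0.0125). The differences of Ier2, Ier3 and Ier5 stayed positive without any 1 array, with lowest values of 0.20, 0.35 and 0.28. Egr2 and Nr4a1 stayed negative likewise.

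**Figure D3:**
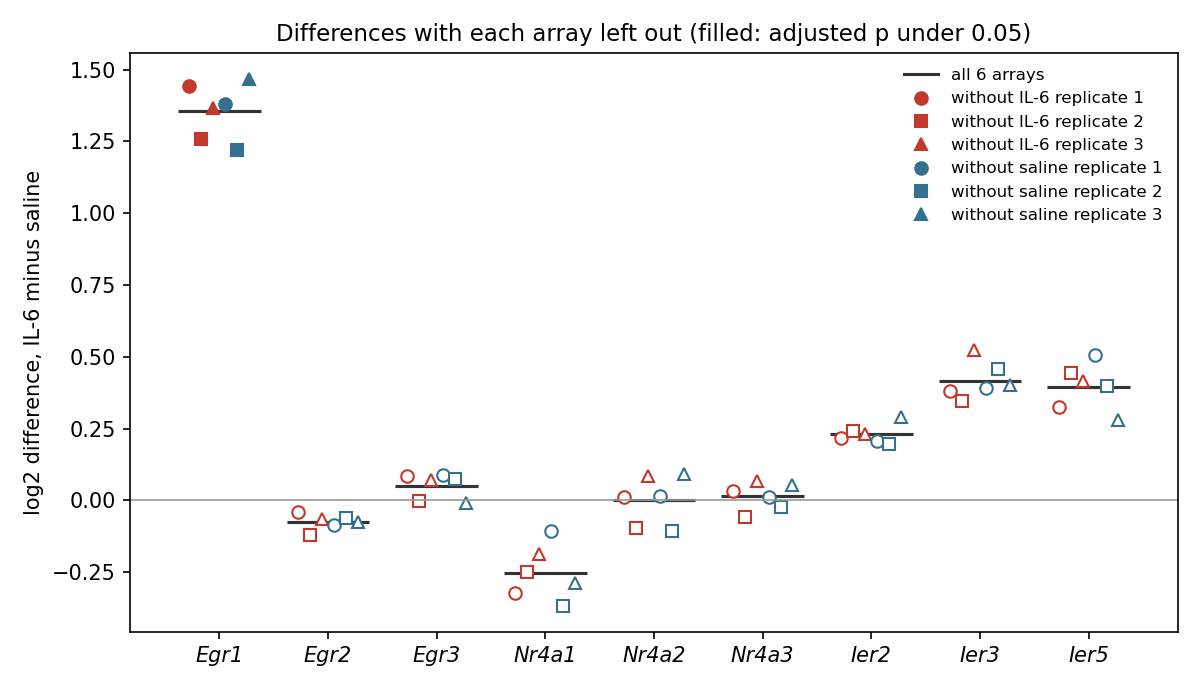
For each gene on the horizontal axis, points give the log2 difference between IL-6 and saline with 1 array left out (red, an IL-6 array, and blue, a saline array) and the bar gives it with all 6 arrays. Filled points have a limma adjusted p under 0.05, which holds for the 6 points of Egr1 and for no other gene. Egr3, Nr4a2 and Nr4a3 fall on both sides of 0.

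Other immediate-early genes, a list of 60 that includes transcription factors, RNA decay factors, kinases, stress genes and feedback genes, held further called genes. All 60 were measured. In that list 15 were called higher and 0 lower, a share of 25% higher, against 0.386% of all genes. The list was chosen with earlier results of these data known, so its shares are a description and not a test. At an unadjusted limma p under 0.05, 26 of the 60 were higher and 4 lower, against 3.78% and 2.83% of all genes. The median difference was 0.20, and 25 of 60 (41.7%) had all IL-6 values above all saline values, against 6.15% of all genes. Egr1 was among the larger differences there, with 5 genes above it, the JAK-STAT inhibitor Socs3 (3.15 ± 0.11), the stress genes Gadd45a (2.64 ± 0.09) and Gadd45g (2.37 ± 0.18), Phlda1 (1.65 ± 0.15), and Zfp36 (1.43 ± 0.09), which speeds the decay of AU-rich messages. Close to Egr1 stood the AP-1 gene Jun (1.32 ± 0.13), with Junb at 1.07 ± 0.10 and the stress factor gene Atf3 at 0.58 ± 0.09. The other called genes were the kinase Plk3 (1.24 ± 0.19), the repressors Nfil3 (1.22 ± 0.08) and Bhlhe40 (1.00 ± 0.12), the antiproliferative Btg2 (1.11 ± 0.15), the decay factor Zfp36l1 (1.03 ± 0.13), Id3 (1.02 ± 0.12) and Arid5b (0.89 ± 0.10). Ier3 and Ier5 each had 19 genes of the list above them and Ier2 had 25.

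**Figure D4:**
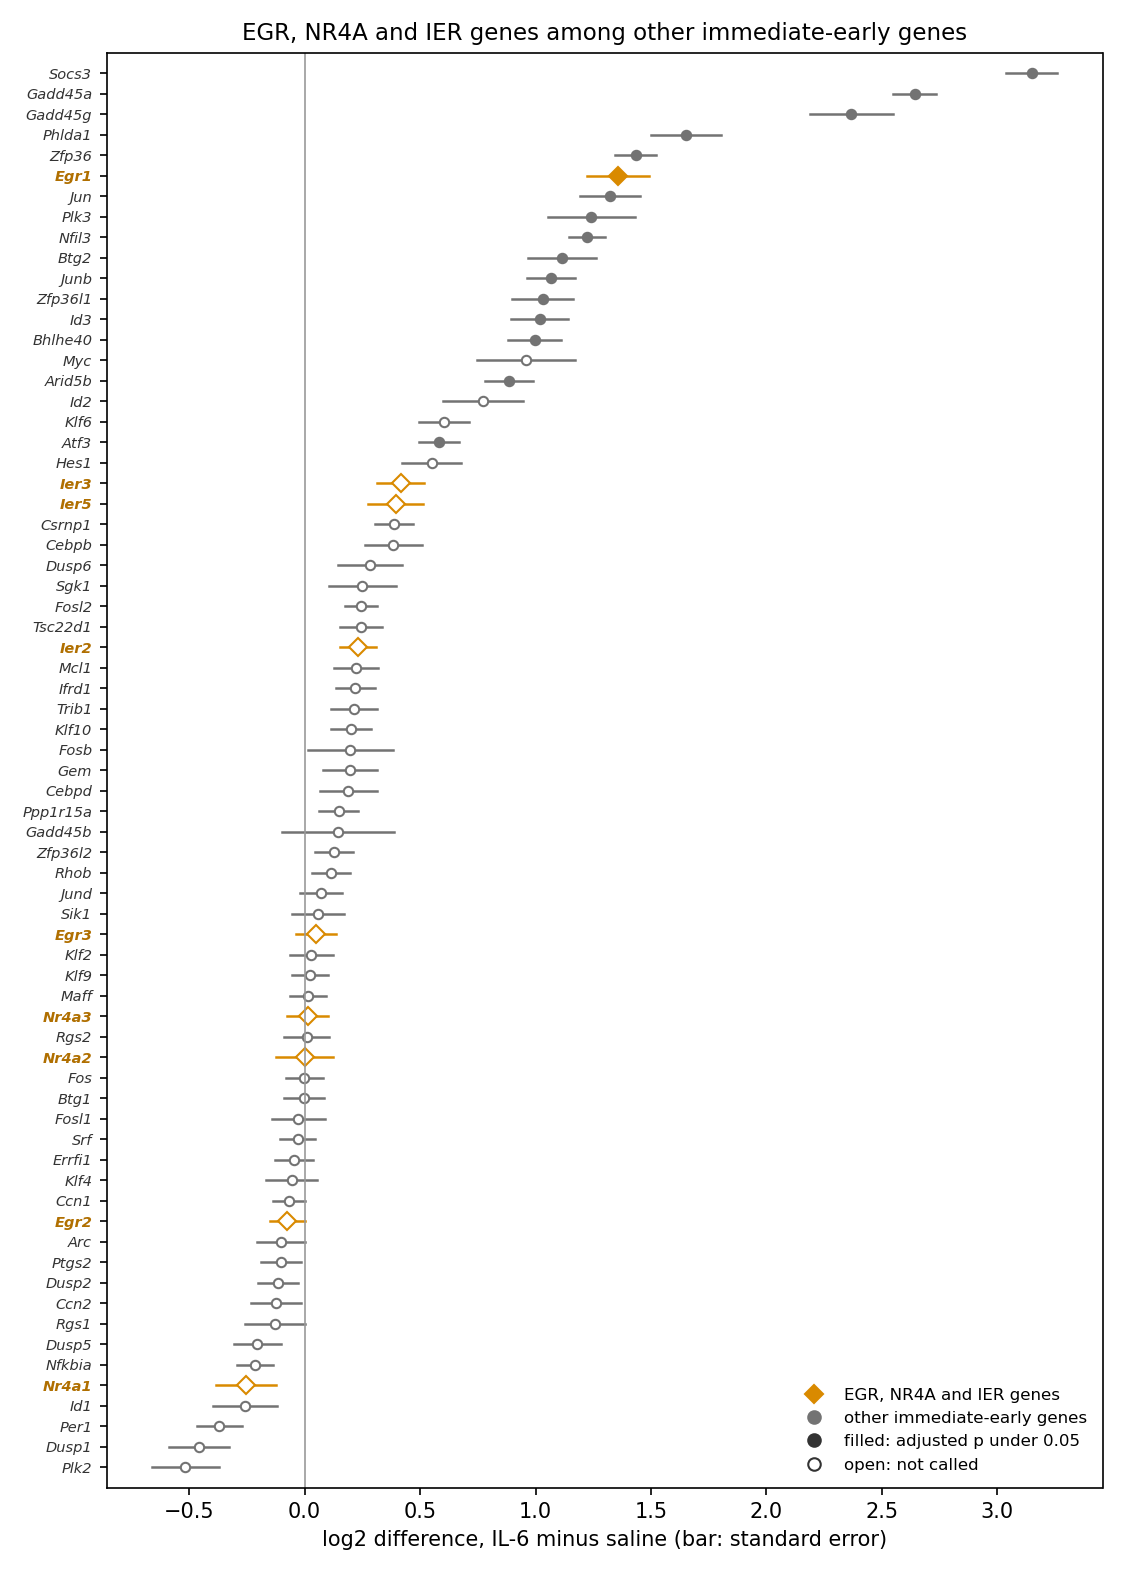
The 9 EGR, NR4A and IER genes (orange diamonds) and 60 other immediate-early genes (grey circles) are ordered down the page by log2 difference between IL-6 and saline, with the standard error as a bar. Filled symbols have a limma adjusted p under 0.05. Egr1 is sixth from the top, below Zfp36 (1.43), the IER genes follow with positive differences, and Nr4a1 (-0.25) lies near the bottom.

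Relatives and partners of the 9 genes gave no call. Among Egr4, Wt1, Ier5l and the EGR corepressors Nab1 and Nab2, limma called 0 of 5 and 0 had an unadjusted p under 0.05. The smallest p were those of Ier5l at -0.13 ± 0.08 and Egr4 at -0.11 ± 0.09 (limma adjusted p = 0.877 and 0.914).

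Of 27 measured genes for kinases, coactivators and transcription factors that are known to induce immediate-early genes, limma called 0, with a median difference of 0.01. Of these 27, 3 were higher and 0 lower at an unadjusted limma p under 0.05, against 3.78% and 2.83% of all genes. The smallest p were those of Mapk14, the p38 kinase (0.26 ± 0.08, limma adjusted p = 0.446), and Crtc3, a CREB coactivator (0.24 ± 0.09, limma adjusted p = 0.650). The activity of such proteins is mostly set by phosphorylation, which arrays do not measure.

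Genes reported in other cells as EGR1 targets gave 0 calls of 18 measured in limma, with a median of -0.02. Of these 18, 2 were higher and 0 lower at an unadjusted limma p under 0.05, against 3.78% and 2.83% of all genes. Icam1, a leukocyte adhesion molecule, had 0.42 ± 0.08 with its IL-6 values above saline (limma adjusted p = 0.0984). Vegfa, an endothelial growth factor, had 0.19 ± 0.08 (limma adjusted p = 0.751). Of 15 genes for NR4A partners and reported liver targets, limma also called 0, with 1 higher and 1 lower at an unadjusted p under 0.05 and a median of -0.03. Of the 15, 2 had all IL-6 values below all saline values and 1 had them above, against 5.48% and 6.15% of all genes. G6pc, the catalytic unit of glucose-6-phosphatase, had -0.34 ± 0.11 with its IL-6 values below saline (limma adjusted p = 0.532). Pdk4, which restrains pyruvate oxidation in fasting, had 0.92 ± 0.33 with overlapping groups (limma adjusted p = 0.598).

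The 5 genes outside the 9 whose log2 values followed those of Egr1 most closely over the 6 arrays were Rpl7a, Mid1, Lgals1, Atf3 and Trio. Their Pearson correlations with Egr1 ran from 0.984 to 0.994, the Spearman correlation was 1 for all but Atf3 (0.886), and 19929 genes were searched. Of these, Atf3 was called, and Mid1 and Lgals1 had differences of 0.42 ± 0.09 and 0.44 ± 0.09 (limma adjusted p = 0.127 and 0.118). Rpl7a and Trio had 0.13 ± 0.07 and 0.14 ± 0.07 (limma adjusted p = 0.846 and 0.822). The arrays share 1 normalization and fall into 2 groups, and the genes were picked for this likeness, so these correlations are a description.

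The tissue carried the marks of liver, with 10 hepatocyte markers at or above the 96.0th percentile of level, and limma called 0 of them, with 0 at an unadjusted p under 0.05. In bulk tissue, more cells of a type and more RNA per cell cannot be told apart. Mean log2 deviations of 12 Kupffer cell and macrophage markers from saline ran from 0.01 to 0.28 in IL-6 arrays and from -0.10 to 0.08 in saline arrays. The highest was that of IL-6 replicate 2. In this set 11 of 12 differences were positive, 0 were called in limma and 2 were higher at an unadjusted limma p under 0.05. Over all genes tested 51.1% of differences were positive, and 3.78% of genes were higher and 2.83% lower at that p. Mean deviations of 5 cholangiocyte markers were 0.06 to 0.18 in IL-6 arrays and -0.01 to 0.02 in saline arrays. Limma called 0 of these, 4 of 5 differences were positive and 1, Sox9, was higher at an unadjusted p under 0.05. Of 10 neutrophil markers 5 had positive differences and limma called 1 higher, S100a8 (0.65 ± 0.09). At an unadjusted p under 0.05, S100a8 was higher and Ly6g (-0.27 ± 0.10) lower, and the mean deviations ran from -0.12 to 0.14 in IL-6 arrays and from -0.06 to 0.04 in saline arrays. Of 10 sinusoidal endothelial, 10 stellate and fibroblast and 9 lymphocyte markers 0 were called in limma, and 0 passed at an unadjusted p under 0.05. Positive differences numbered 8, 7 and 3 in these sets. All IL-6 values lay below all saline values in 2 lymphocyte markers (22.2%, against 5.48% of all genes). They lay above in 1 stellate and fibroblast marker (10%, against 6.15%). The part of other cell types in the Egr1 and IER differences was not tested.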

How the data were processed

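Biotin-labelled total RNA of whole liver was measured on 6 Affymetrix arrays of 1 colour, per the labels. The authors summarised each probe set as a log2 value with RMA, per the submitters' processing notes, and these deposited values were used unchanged. The RMA version and the array's build are not named in the sources. Array medians lay between 5.42 and 5.48, no 2 arrays were identical, and array number limits the precision (median standard error 0.089). RMA's quantile step can compress large changes.

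Of 35556 probe sets, 21789 have 1 symbol. The probe set with the highest mean stood for each of 19938 genes, with no filter on level. IL-6 was compared with saline in limma 3.58.1 (R 4.3.3, lmFit and eBayes, two-sided, Benjamini-Hochberg adjustment), and the fit was tested on simulated data. The labels name separate samples but no separate animals, so p-values measure the spread between samples. Members and lists were chosen with earlier results of these data known. Named with values were the 9 genes, called list members or, with none, the 2 of smallest p, and the 5 genes most like each called member. Marker genes, Fos and genes said to be so were named after their values were seen. List symbols without a probe set of 1 symbol were not analysed here. Replicate numbers were not used as pairs in the main fit. Promoters are from RefSeq (GRCm38.p6), matched by symbol. Alternatives were other probe set rules, normalizations, filters, variance priors, array weights, a replicate block, a threshold of 0.1 and arrays left out. Figures used matplotlib 3.10.9 (Python 3.11.15).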

Additional observations from a re-analysis of the deposited data

How the results depend on the processing

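Egr1 kept its direction under all 18 alternatives and its call under 17. With every probe set tested, its difference was 1.36 (limma adjusted p = 0.0797), so 0 of the 9 genes were called, with 5 other immediate-early genes, and 16 higher and 1 lower over the whole table. That setting adjusts for 35556 tests and fits 2.56 prior degrees of freedom in place of 5.28. The other 8 genes were not called under any alternative that tested them, 18 for Egr3 and Ier2, 17 for Egr2, Nr4a1, Nr4a2, Ier3 and Ier5, and 16 for Nr4a3, since the filters on level left out the rest. Nr4a2, at 8.43e-05 with all arrays, was -0.014 with array weights and -0.022 without the 2 arrays set apart on the second component, which left 31 higher and 2 lower genes. With each array left out in turn, Egr3 ran from -0.0106 to 0.0890, Nr4a2 from -0.107 to 0.0931, Nr4a3 from -0.0586 to 0.0673, all genes higher from 45 (without saline replicate 3) to 67, and all genes lower from 3 (without IL-6 replicate 1) to 5, against 77 and 7 with all arrays. Without IL-6 replicate 1 or IL-6 replicate 3, 46 were higher, and without saline replicate 2, 4 were lower. The cause was not tested. An adjusted p under 0.1 gave 12 lower genes. Other immediate-early genes called ran from 12 to 15 with an array left out. Same-numbered arrays did not deviate together (correlations of deviations from group means 0.08, -0.12 and -0.09 for numbers 1 to 3), and the replicate block gave 59 higher and 6 lower genes, with Egr1 at 1.36 (limma adjusted p = 0.0104). Across the groups the largest such correlation was 0.18, between IL-6 replicate 3 and saline replicate 2, the arrays set apart on the second component. A shared factor was not tested. Signal over background is unknown here, which limits what low values such as those of Nr4a1 and Nr4a3, and those of Egr2 below the median level, can show.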

Other observations

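In the list of 60 other immediate-early genes, limma called 0 lower, and 5 (8.33%) had all 3 IL-6 values below all 3 saline values, a share near the 5.48% of all genes tested. They are given as values and were named after these were seen. Plk2, a kinase of the polo-like family, had a difference of -0.52 ± 0.14 (limma adjusted p = 0.383), Dusp1, a phosphatase that switches off MAP kinases, -0.46 ± 0.13 (0.415), and Per1, a clock gene, -0.37 ± 0.10 (0.337). Nfkbia, the inhibitor of NF-kappaB, had -0.21 ± 0.08 (limma adjusted p = 0.630) and Ccn1, a matricellular protein also called Cyr61, -0.07 ± 0.07 (0.941). Fos, the classical partner of Jun, had a difference of -0.0009 ± 0.08, beside 1.32 for Jun and 1.36 for Egr1. No explanation was tested.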
